A study of Mus musculus with 6 samples.

Results

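The Hox cluster genes Hoxa2, Hoxa3, Hoxa5, Hoxa10, Hoxb3, Hoxb8, Hoxd3 and Hoxd4 were followed in RNA-seq libraries of mouse stem-like medulloblastoma cells, a cell population of a tumour of the cerebellum. They were found by gene symbol, 8 of 24063 symbols in the count tables and 8 of the 39 Hox genes listed there. All groups shared the genotype Math1-Cre; SmoM2, in which Cre recombinase, driven by the promoter of Math1 (Atoh1, a gene of granule neuron progenitors), switches on SmoM2, an always active form of the Hedgehog transducer Smoothened. The control group carried the guide sgGal4-4, named for the yeast protein Gal4 and labelled WT. The other groups carried sgMiat-6 or sgMiat-96, whose names refer to Miat, a long noncoding RNA, and whose labels read as its knockdown. Each of the 3 guide groups had 2 libraries, 6 in all. The labels give no animal age, no CRISPR effector, and no statement that the libraries of a group came from separate cultures or clones. The p-values therefore measure the spread between these libraries, which may be technical.

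Hox genes encode homeodomain transcription factors that set position along the head-to-tail axis, and they lie in HoxA, HoxB, HoxC and HoxD clusters. Genes toward the 3′ end of a cluster, with low numbers, are switched on earlier and farther forward in the embryo than genes toward the 5′ end, with high numbers. Hox proteins bind DNA with partners of the Pbx and Meis families, retinoic acid opens the 3′ genes, and Polycomb and Trithorax proteins keep the clusters silent or active. The cerebellum forms from the most anterior hindbrain, ahead of the Hox territories, of which that of Hoxa2 reaches farthest forward.

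On GRCm38 with GENCODE M21 annotation, Hoxa2 lies on the minus strand of chromosome 6 from 52162417 to 52164831, in 2 exons. Hoxa3 runs on that strand from 52169062 to 52213115, in 5 exons, and it spans Hoxa4, Hoxa5 and Hoxa6. Hoxa5 runs from 52201754 to 52204587 and Hoxa10 from 52231922 to 52240854, each in 2 exons. On the plus strand of chromosome 11, Hoxb8 occupies 96281905 to 96285315 and Hoxb3 96323326 to 96347930. On the plus strand of chromosome 2, Hoxd3 runs from 74711927 to 74748271 and spans Hoxd4, at 74721978 to 74729160. Exon numbers here and exon overlaps below rest on the GENCODE models, whose exon length can differ from that of the RefSeq row counted. It was 1436 against 2161 bases for Hoxa10, and 3190 against 3390 for Hoxb3.

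The 4 HoxA members lie within 1 cluster and behaved differently, so the 250 bases before their RefSeq start sites (assembly GRCm38.p6) are shown, 5′ to 3′ on the gene's strand. Hoxa10 has a pair of entries. Capitals mark matches, on either strand, to TGATNNAT, a motif bound by Hox with Pbx, or to TGACAG, a motif bound by Meis proteins.
Hoxa2: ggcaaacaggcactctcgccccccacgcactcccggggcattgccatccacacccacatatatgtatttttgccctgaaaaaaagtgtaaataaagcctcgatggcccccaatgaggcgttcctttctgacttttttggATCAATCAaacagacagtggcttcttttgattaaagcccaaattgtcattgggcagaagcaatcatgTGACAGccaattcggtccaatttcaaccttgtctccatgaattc
Hoxa3: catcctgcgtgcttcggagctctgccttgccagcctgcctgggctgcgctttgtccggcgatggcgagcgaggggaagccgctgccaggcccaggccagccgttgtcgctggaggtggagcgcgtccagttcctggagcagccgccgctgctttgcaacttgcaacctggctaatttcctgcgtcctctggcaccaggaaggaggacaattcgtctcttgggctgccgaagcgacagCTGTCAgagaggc
Hoxa5: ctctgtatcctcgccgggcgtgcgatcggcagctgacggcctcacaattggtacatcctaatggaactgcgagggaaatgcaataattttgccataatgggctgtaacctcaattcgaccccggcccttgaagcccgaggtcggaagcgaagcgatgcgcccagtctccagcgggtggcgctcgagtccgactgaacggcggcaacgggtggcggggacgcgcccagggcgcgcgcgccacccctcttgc
Hoxa10 upstream window: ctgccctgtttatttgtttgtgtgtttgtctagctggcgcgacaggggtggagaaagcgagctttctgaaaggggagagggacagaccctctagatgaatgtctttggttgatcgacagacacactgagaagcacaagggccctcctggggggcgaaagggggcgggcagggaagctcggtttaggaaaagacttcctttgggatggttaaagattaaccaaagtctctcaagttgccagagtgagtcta
Hoxa10 downstream window: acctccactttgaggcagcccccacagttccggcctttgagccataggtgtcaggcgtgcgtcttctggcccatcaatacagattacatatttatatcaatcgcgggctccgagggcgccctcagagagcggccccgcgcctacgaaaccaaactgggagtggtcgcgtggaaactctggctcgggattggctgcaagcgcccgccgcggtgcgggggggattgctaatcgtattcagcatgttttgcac
The windows lie at chr6:52164832-52165081 for Hoxa2, chr6:52213068-52213317 for Hoxa3, chr6:52204588-52204837 for Hoxa5, and chr6:52240855-52241104 and chr6:52234940-52235189 for Hoxa10. Hoxa2 holds a Hox-Pbx match that starts at position -111 and a Meis match at -44 from the start site, and Hoxa3 holds a Meis match at -13. The windows of Hoxa5 and Hoxa10 hold neither sequence. Among 32851 RefSeq promoter windows of the same length, 7.68% hold TGATNNAT and 15.9% hold TGACAG on either strand. CpG dinucleotides number 28 for Hoxa5, 18 for Hoxa3, 6 for Hoxa2, and 7 and 20 for the Hoxa10 windows, against a median of 6 over all windows. A match describes these letters and was not tested as a binding site. RefSeq entries were matched for 7 of the 8 members.

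The rows used, 1 per gene symbol, held between 18438891 and 19650274 counts in a library, so that 3 counts correspond to between 0.149 and 0.173 CPM (counts relative to the scaled library size). Miat, checked as the targeted gene, was read 140 and 139 times in the sgGal4-4 libraries and 0 times in each of the 4 libraries with a Miat guide. It was at least 178-fold lower with both Miat guides (edgeR, adjusted p = 3.56e-08), and it entered the test only through the control libraries. Of 8 granule neuron progenitor markers, Atoh1, the defining gene, had 0 counts in every library, and the other 7 summed to between 98.7 and 103 CPM with sgGal4-4 and between 182 and 203 CPM with the Miat guides. Zic1 made up most of this sum. Of the 5 tested with both guides, 4 were called higher and Mfap4 lower, with group means of 1.30 CPM (sgGal4-4), 0.152 (sgMiat-6) and 0.227 (sgMiat-96). Mfap4 entered the test only through the control libraries, where it is high. A list of 6 astrocyte markers summed to between 2527 and 2564 CPM with sgGal4-4 and between 970 and 1048 CPM with the Miat guides. A list of 7 oligodendrocyte lineage markers, mostly Olig1 and Olig2, summed to between 1911 and 1965 CPM with sgGal4-4, 3080 and 3220 with sgMiat-6, and 4721 and 4810 with sgMiat-96. Markers of lower brainstem and spinal cord progenitors, where Hox genes are normally on, were 6, and Olig3 is among those at 0 in every library. They summed to between 9.02 and 10.4 CPM with sgGal4-4 and between 13.0 and 16.4 CPM with the Miat guides, a sum of opposite changes. Tlx3 was at 0 in the controls, had group means of 8.45 CPM (sgMiat-6) and 10.9 CPM (sgMiat-96), and was called higher with both guides (adjusted p = 1.04e-08). Tlx3 entered the test only through the Miat libraries, where it is high. Lbx1 had means of 9.30 CPM in the controls, 3.47 in the sgMiat-6 group and 1.71 in the sgMiat-96 group, and was called lower (adjusted p = 2.16e-06). The part of these shifts in the Hox results was not tested. Microglia markers (6, with Cx3cr1 and C1qa at 0 in every library) summed to at most 1.08 CPM and choroid plexus markers (3, with Ttr at 0) to at most 0.231 CPM. Endothelial markers (5, with Cldn5 at 0) summed to between 5.56 and 6.94 CPM in the controls and between 2.14 and 3.77 CPM with the Miat guides. Fibroblast and meningeal markers (7) summed to between 27.9 and 36.1 CPM over the 6 libraries, again a sum of opposite changes. Col1a1 had group means of 8.67 CPM (sgGal4-4), 0.524 (sgMiat-6) and 0.603 (sgMiat-96), and Foxc1 had 22.9, 28.3 and 34.3. Of the 3 tested with both guides, Col1a1 was called lower, and Foxc1 and the low-count Col3a1 higher. Col3a1 entered the test only through the Miat libraries, where it is high. Neural crest markers (4, with Foxd3 at 0) summed to between 9.52 and 11.2 CPM, mostly Tfap2a, while the low-count Ngfr was called lower. Ngfr entered the test only through the control libraries, where it is high.

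With both Miat guides averaged against sgGal4-4, 4 of the 8 members were called lower (Hoxa3, Hoxa10, Hoxb3 and Hoxb8), 0 were called higher, and Hoxa2, Hoxa5, Hoxd3 and Hoxd4 did not pass the test. Calls were made at an adjusted p under 0.05. Across all 13220 genes tested in this comparison, 33.4% were called lower, 33.1% higher and 66.5% in either direction. The median log2 fold change of the members was -0.73, against 0.00 over all genes tested. All 8 members passed the filter on low counts, Hoxb3 and Hoxb8 only through the control libraries, where they are high, so that the count of lower calls partly follows from the filter. In bulk RNA, fewer cells of a type and less RNA per cell cannot be told apart, and this holds for each change below.

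**Figure D1:**
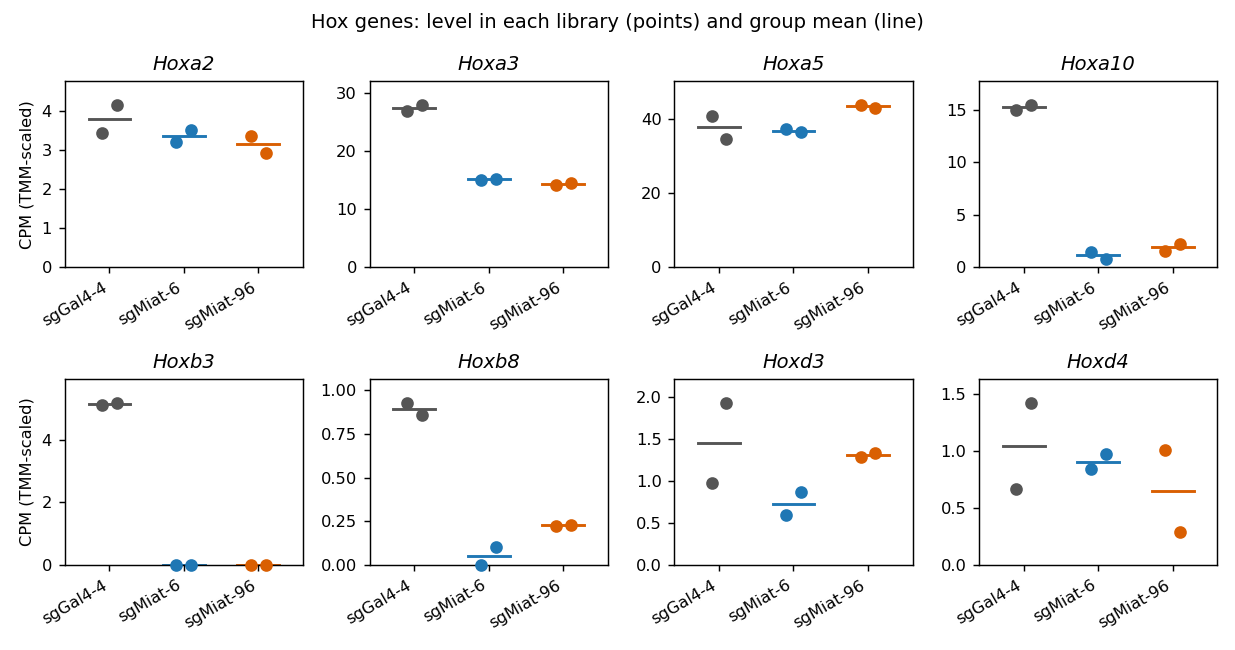
Level of each of the 8 members in each of the 6 libraries, in CPM (vertical axes, which differ between panels), with 1 point per library and a line at the mean, by guide group (horizontal axes). The Miat libraries lie below both sgGal4-4 libraries for Hoxa3, Hoxa10, Hoxb3 and Hoxb8, and overlap with them for Hoxa2, Hoxa5, Hoxd3 and Hoxd4. The share of all genes separated in this way is not given, and 66.5% of all genes were called with both guides.

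Hoxa2, which specifies the identity of the second branchial arch, had 3.45 and 4.15 CPM in the sgGal4-4 libraries, 3.22 and 3.52 with sgMiat-6, and 3.37 and 2.94 with sgMiat-96. The groups overlapped, with 3 of the 4 Miat libraries below both controls. The log2 fold change for both guides was -0.22 ± 0.21 (SE), with an adjusted p of 0.375. A difference of this size was within the spread between the libraries.

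Hoxa3, which patterns the third pharyngeal arch and pouch and so the thymus and parathyroid, had 520 and 549 counts with sgGal4-4, 303 and 298 with sgMiat-6, and 250 and 249 with sgMiat-96. As CPM these were 27.3 ± 0.726, 15.1 ± 0.131 and 14.2 ± 0.224 (mean ± SD, n = 2). All 4 Miat libraries were below both controls, and the libraries of each guide were close together. Its log2 level fell by 0.90 ± 0.12 with both guides, a 1.86-fold decrease (edgeR, adjusted p = 1.65e-05). The largest overlap of its exons is with Hoxaas2, an antisense transcript not analysed here, over 503 bases or 19.4% of their length. Because the sources used here do not say whether counting used strand, reads of such pairs cannot be told apart.

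Hoxa5, a regulator of lung and skeletal development, was the most abundant member. It had 40.8 and 34.7 CPM with sgGal4-4, 37.2 and 36.6 with sgMiat-6, and 43.7 and 43.1 with sgMiat-96. The Miat libraries lay on both sides of the controls, and only the sgMiat-96 libraries were above both of them. The log2 fold change was 0.09 ± 0.11 for both guides (adjusted p = 0.498). Hoxa5 lies inside the span of Hoxa3, which fell, and its exons overlap those of no other annotated gene.

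Hoxa10, a 5′ HoxA gene known from the uterus, limb and blood progenitors, had 292 and 304 counts with sgGal4-4, 29 and 16 with sgMiat-6, and 27 and 39 with sgMiat-96. As CPM these were 15.2 ± 0.254, 1.13 ± 0.439 and 1.88 ± 0.518 (mean ± SD, n = 2). All 4 Miat libraries were far below both controls, and the spread between the controls was small. The log2 level fell by 3.38 ± 0.21 with both guides, 10.4-fold (adjusted p = 2.10e-08). A second transcript row of Hoxa10, whose reads overlap those of the row used, held 282 and 304 counts in the controls and between 18 and 40 in the Miat libraries.

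Hoxb3, expressed in the posterior hindbrain and in pharyngeal arches, had 5.10 and 5.17 CPM in the sgGal4-4 libraries and 0 in each of the 4 Miat libraries. The controls held 99 and 102 counts. Taking 3 counts over the Miat libraries as the floor, it was at least 128-fold lower with both guides (adjusted p = 1.20e-07). Its second transcript row held 98 and 103 counts in the controls and likewise 0 in the Miat libraries. The antisense gene Hoxb3os, not analysed here, covers 2250 bases or 70.5% of the exon sequence of Hoxb3, so these reads cannot be assigned to a strand.

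Hoxb8, which is expressed in the spinal cord and marks a lineage of microglia, was read 18 and 17 times in the control libraries, 0 and 2 with sgMiat-6, and 4 and 4 with sgMiat-96. These correspond to 0.927 and 0.861 CPM in the controls and at most 0.231 CPM in the Miat libraries. No Miat library reached the controls. The log2 level fell by 2.96 ± 0.60 with both guides, 7.80-fold (adjusted p = 0.000738). The counts are low, and the precision is poorer than for Hoxa3 or Hoxa10.

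Hoxd3, which shapes the upper cervical vertebrae, had 0.979 and 1.93 CPM with sgGal4-4, 0.595 and 0.868 with sgMiat-6, and 1.29 and 1.33 with sgMiat-96. The controls themselves differed 19 against 38 counts, and the sgMiat-96 libraries lay between them. The log2 fold change was -0.57 ± 0.37 for both guides (adjusted p = 0.188). Hoxd4, a hindbrain and cervical gene that responds to retinoic acid, had 0.670 and 1.42 CPM with sgGal4-4, 0.843 and 0.970 with sgMiat-6, and 1.01 and 0.289 with sgMiat-96. Its groups overlapped, and the log2 fold change was -0.44 ± 0.47 (adjusted p = 0.426). The exons of Hoxd3 and Hoxd4 share 388 bases on the same strand, 13.1% of those of Hoxd3. A readthrough model, Gm28230, covers 75.0% of Hoxd3 and 45.1% of Hoxd4, so reads may be split between the genes.

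**Figure D2:**
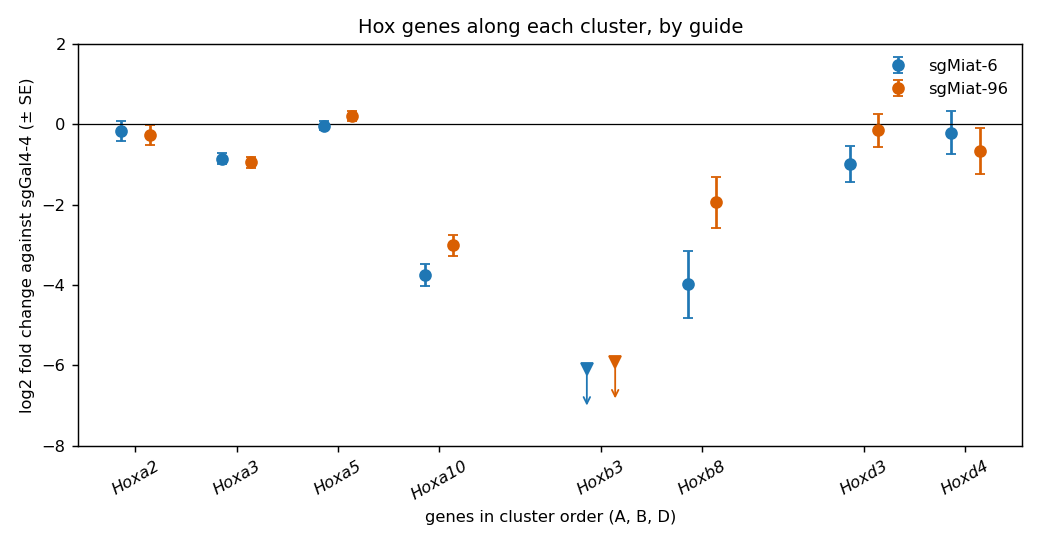
Log2 fold change against sgGal4-4 (vertical axis) with its standard error (bars) for the 8 members (horizontal axis, in cluster order), for sgMiat-6 and sgMiat-96 apart; Hoxb3 is drawn at its lower bound with an arrow. For every gene shown that was called, the points of both guides lie on the same side of 0.

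Each guide was also compared with sgGal4-4 alone; both comparisons use the same 2 control libraries. With sgMiat-6, 4 of 8 members were called lower and 0 higher, against 26.1% lower, 26.9% higher and 53.0% in either direction over all genes. With sgMiat-96, 4 of 8 were called lower and 0 higher, against 34.2%, 34.0% and 68.2%. The members called were Hoxa3, Hoxa10, Hoxb3 and Hoxb8 in each.

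Hoxa3 fell by 0.85 ± 0.14 on the log2 scale with sgMiat-6 (adjusted p = 0.000185) and by 0.94 ± 0.14 with sgMiat-96 (adjusted p = 5.02e-05). Hoxa10 fell 13.4-fold with sgMiat-6 (adjusted p = 1.64e-07) and 8.07-fold with sgMiat-96 (adjusted p = 4.82e-07). For Hoxb3 the bound was at least 68.0-fold lower for sgMiat-6 (adjusted p = 1.62e-06), and for sgMiat-96 at least 60.1-fold lower (adjusted p = 1.28e-06). The sizes were thus near each other for Hoxa3, while Hoxa10 was lower with sgMiat-6 by value. For Hoxb8 the ratio with sgMiat-6 was 17.8, from 35 control counts against 2, with a 95% interval of 4.57 to 153 (adjusted p = 0.00133). With sgMiat-96, Hoxb8 fell 3.84-fold (adjusted p = 0.0160). That call was lost without either sgGal4-4 library (adjusted p = 0.0948 without replicate 1 and 0.0762 without replicate 2), without either sgMiat-96 library (0.0846 and 0.0746), and by DESeq2 (0.116).

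The 4 members not called were also not called with either guide. Hoxa2 had log2 fold changes of -0.17 ± 0.25 with sgMiat-6 and -0.27 ± 0.25 with sgMiat-96. With the trend over transcript length removed, Hoxa2 was called lower with sgMiat-96, at -0.63 (adjusted p = 0.0332). Hoxa5 had -0.03 ± 0.12 and 0.20 ± 0.12, and Hoxd4 had -0.21 ± 0.53 and -0.67 ± 0.57. Hoxd3 had -0.99 ± 0.45 with sgMiat-6 (adjusted p = 0.0795) and -0.15 ± 0.42 with sgMiat-96 (adjusted p = 0.763). The standard errors of the HoxD genes, which had the low counts given above, are several times those of Hoxa5.

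Set directly against each other, sgMiat-96 and sgMiat-6 differed in 0 of the 7 members with a count in these groups by edgeR's quasi-likelihood test, against 36.7% of all genes called, 17.8% higher and 18.8% lower with sgMiat-96. Hoxb3, at 0 counts in all 4 Miat libraries, could not be compared, and Hoxb8 entered the test only through the control libraries. DESeq2 also called 0, and 1 member, Hoxa10, had an unadjusted p under 0.05. Hoxa10 differed by 0.73 ± 0.33 on the log2 scale (adjusted p = 0.102), Hoxa5 by 0.23 ± 0.12 (adjusted p = 0.155), and Hoxb8 by 2.04 ± 1.10 (adjusted p = 0.160). Hoxd3 differed by 0.84 ± 0.46 (adjusted p = 0.169) and Hoxa3 by -0.09 ± 0.14 (adjusted p = 0.649). For Hoxb8 and the HoxD genes the intervals are wide, and a p above the threshold does not show that the guides act alike.

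Levels were compared between genes as CPM per kilobase of transcript, mean ± SD of 2 libraries. In the controls Hoxa5 stood at 20.1 ± 2.31, Hoxa3 at 10.7 ± 0.286, Hoxa10 at 7.04 ± 0.118, Hoxa2 at 2.14 ± 0.280 and Hoxb3 at 1.51 ± 0.0142 CPM per kilobase. Hoxd3 followed at 0.337 and 0.663 in its libraries, then Hoxd4 at 0.408 ± 0.207 and Hoxb8 at 0.338 ± 0.0176, and these overlapped. In this order only those last 3 genes did not differ from their neighbours beyond their spread.

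With sgMiat-6 the order became Hoxa5 at 19.7 ± 0.243, Hoxa3 at 5.94 ± 0.0513 and Hoxa2 at 1.90 ± 0.119 CPM per kilobase. Hoxa10, which ranked above Hoxa2 in the controls, came after Hoxa2 at 0.522 ± 0.203, and overlapped with Hoxd4 at 0.354 ± 0.0350. Hoxd3 stood at 0.252 ± 0.0664, and Hoxb8 at 0.0193 ± 0.0273 overlapped with Hoxb3 at 0. With sgMiat-96 the leading genes were Hoxa5 at 23.1 ± 0.256, Hoxa3 at 5.59 ± 0.0882 and Hoxa2 at 1.78 ± 0.171, again with Hoxa10 after them at 0.872 ± 0.240. Hoxd3 at 0.451 ± 0.00841, Hoxd4 at 0.254 ± 0.200, Hoxb8 at 0.0861 ± 0.00160 and Hoxb3 at 0 closed the order.

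**Figure D3:**
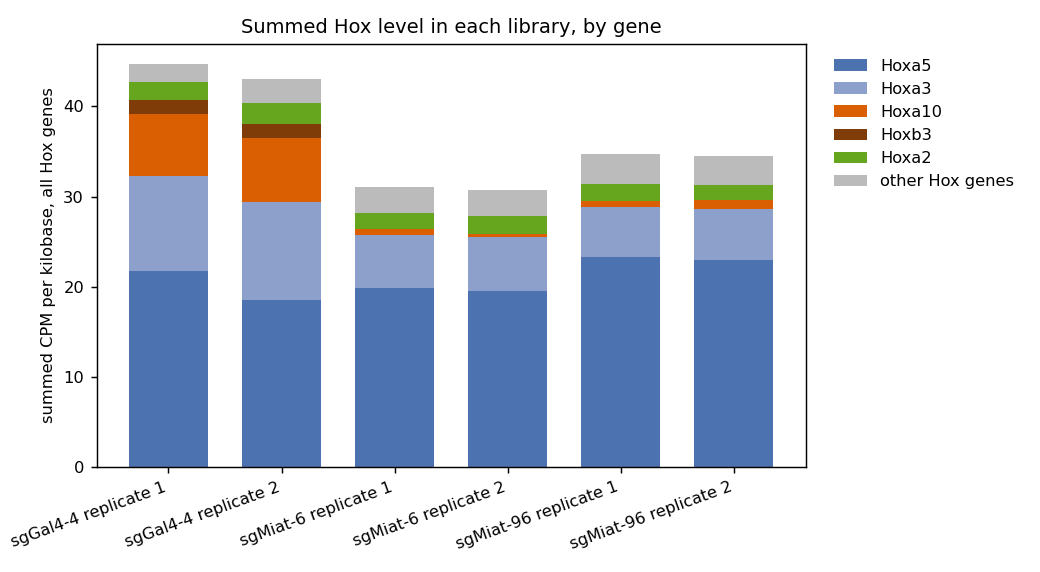
Summed level of the 39 Hox genes in each of the 6 libraries (horizontal axis), in CPM per kilobase of transcript (vertical axis), stacked by gene. The sum is 44.7 and 43.1 in the sgGal4-4 libraries and between 30.7 and 34.7 in the Miat libraries, where the Hoxa5 block keeps its height and the Hoxa3 and Hoxa10 blocks shrink.

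Summed over all 39 Hox genes, the level was 43.9 ± 1.12 CPM per kilobase with sgGal4-4, 30.9 ± 0.279 with sgMiat-6 and 34.6 ± 0.147 with sgMiat-96. Hoxa5 made up 48.6% and 42.8% of this sum in the control libraries and between 63.5% and 67.1% in the Miat libraries. Hoxa10 made up 15.6% and 16.5% in the controls and between 1.23% and 3.02% in the Miat libraries, and Hoxa3 went from 23.6% and 25.4% to between 15.9% and 19.5%. The members together held 97.5% and 97.2% of the sum in the controls and between 92.6% and 93.2% with the Miat guides. No share of these overlapped between control and Miat libraries. The shares are parts of the same sum and are not independent, and the CPM of Hoxa5 itself overlapped between the groups. Shares within other gene sets were not compared, and 66.5% of all genes were called with both guides.

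By cluster, HoxA stood at 40.6 ± 1.64, 30.1 ± 0.441 and 33.5 ± 0.0170 CPM per kilobase with sgGal4-4, sgMiat-6 and sgMiat-96. HoxB stood at 2.04 ± 0.0886, 0.0193 ± 0.0273 and 0.0861 ± 0.00160, and HoxD at 1.03 ± 0.497, 0.787 ± 0.119 and 0.924 ± 0.191. HoxC, with no member and no gene past the filter, stood at 0.270 ± 0.0702, 0.0105 ± 0.0148 and 0.0418 ± 0.0592. HoxB was near 0 in the Miat libraries, HoxA remained the leading cluster in every library, and HoxD overlapped between groups.

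**Figure D4:**
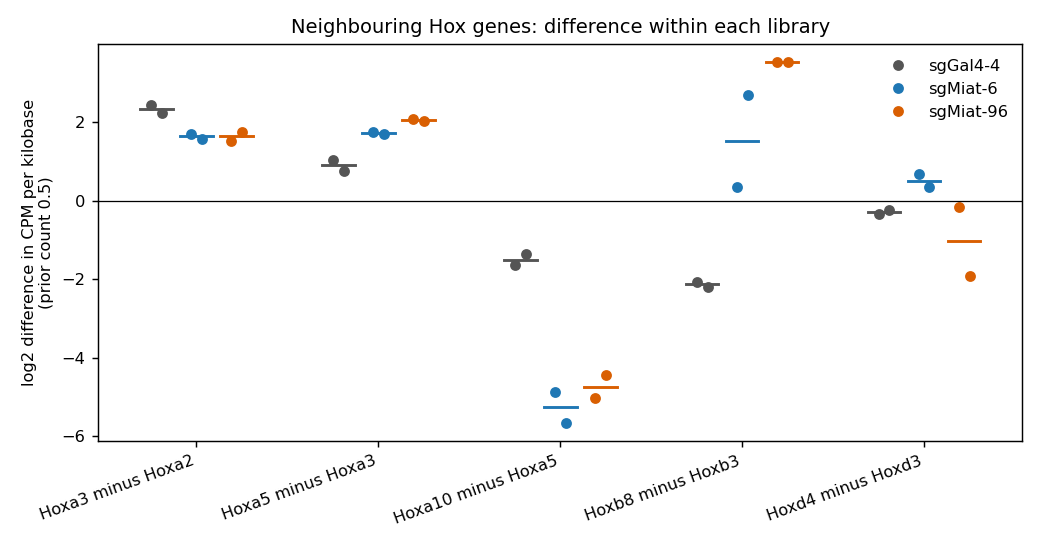
Log2 difference in CPM per kilobase (vertical axis, prior count 0.5) between members that lie next to each other among the members of a cluster (pairs on the horizontal axis), with 1 point for each of the 6 libraries and a line at the mean, coloured by guide group. The Miat libraries lie apart from the controls in 4 of the 5 pairs, and Hoxd4 minus Hoxd3 overlaps. Pairs of other genes were not compared, so this count has no share to be read against.

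Members of a cluster were then compared with the nearest other member, as the log2 difference in CPM per kilobase with a prior count of 0.5. Hoxa3 exceeded Hoxa2 by 2.32 ± 0.15 log2 units in the controls (mean ± SD of 2 libraries, as in the values that follow), by 1.64 ± 0.08 in the sgMiat-6 group and by 1.64 ± 0.16 in the sgMiat-96 group. Hoxa5 exceeded Hoxa3 by 0.90 ± 0.20, 1.72 ± 0.03 and 2.05 ± 0.04. Hoxa10 minus Hoxa5 was -1.51 ± 0.19, -5.26 ± 0.55 and -4.73 ± 0.41, the widest shift among the HoxA pairs. In each HoxA pair the 4 Miat libraries lay on the same side of both controls. These pairs share Hoxa3 or Hoxa5 and are not independent. Pairs of other genes were not compared, and 66.5% of all genes were called with both guides. The separation is therefore not shown to be particular to Hox pairs.

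In HoxB, Hoxb8 minus Hoxb3 was -2.13 ± 0.09 in the controls. With the Miat guides Hoxb3 was at 0 counts, so the values there, 1.52 ± 1.64 and 3.53 ± 0.00, depend on the prior count, and the shift was 4.65 with a prior of 0.5 and 3.44 with a prior of 2. In sgMiat-6 replicate 1 both genes were at 0, so its value of 0.36 reflects the prior count and the transcript lengths alone, and no order of the pair can be read for sgMiat-6. Hoxd4 minus Hoxd3 was -0.30 ± 0.07, 0.50 ± 0.23 and -1.04 ± 1.24, with overlap. An exact permutation test of the 3 guide groups over all 15 splits, two-sided, can reach no p below 0.0667. The exact permutation p was 0.0667 for Hoxa5 with Hoxa3 and for Hoxb8 with Hoxb3, 0.133 for Hoxa10 with Hoxa5, and 0.200 for the remaining pairs. Adjusted over the 5 pairs, the exact p-values were 0.167, 0.200 and 0.200, so this design could call no pair.

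Among Hox genes that are not members, 12 had no count in any library, and 18 had counts but did not pass the filter, with at most 10 in a library. Between Hoxa5 and Hoxa10, Hoxa6 had 0 and 0 counts in the controls and between 6 and 8 in each Miat library, and Hoxa7 had 0 and 0 against 5 or 6. Hoxa9 had 10 and 6 counts in the controls, 0 and 0 with sgMiat-6, and 8 and 2 with sgMiat-96. These counts are too low for a test here, and the 3 genes were named after their values were seen.

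Of 17 noncoding genes of the Hox clusters, 12 were in the files, 5 had a count and 1 was tested. Hoxd3os1, antisense to Hoxd3 with which it shares 347 bases, had 8 and 12 counts in the controls and 5, 2, 4 and 10 in the Miat libraries. Its log2 fold change was -0.93 ± 0.59 (adjusted p = 0.182). Genes that border the clusters were 15, of which 8 were tested, 2 called higher and 4 lower, with a median log2 fold change of -0.15. Cbx5, a heterochromatin protein gene beside HoxC, fell by 0.92 ± 0.08 (adjusted p = 6.99e-07), and Tax1bp1, an autophagy receptor gene near HoxA, fell by 0.62 ± 0.09 (adjusted p = 6.36e-05). Hnrnpa1, an RNA-binding protein gene beside Cbx5, fell by 0.48 ± 0.08 (adjusted p = 0.000244). Skap2, an adaptor gene beside the 3′ end of HoxA, rose by 0.48 ± 0.09 (adjusted p = 0.000491), a call lost with the length trend removed (0.18, adjusted p = 0.0631).

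**Figure D5:**
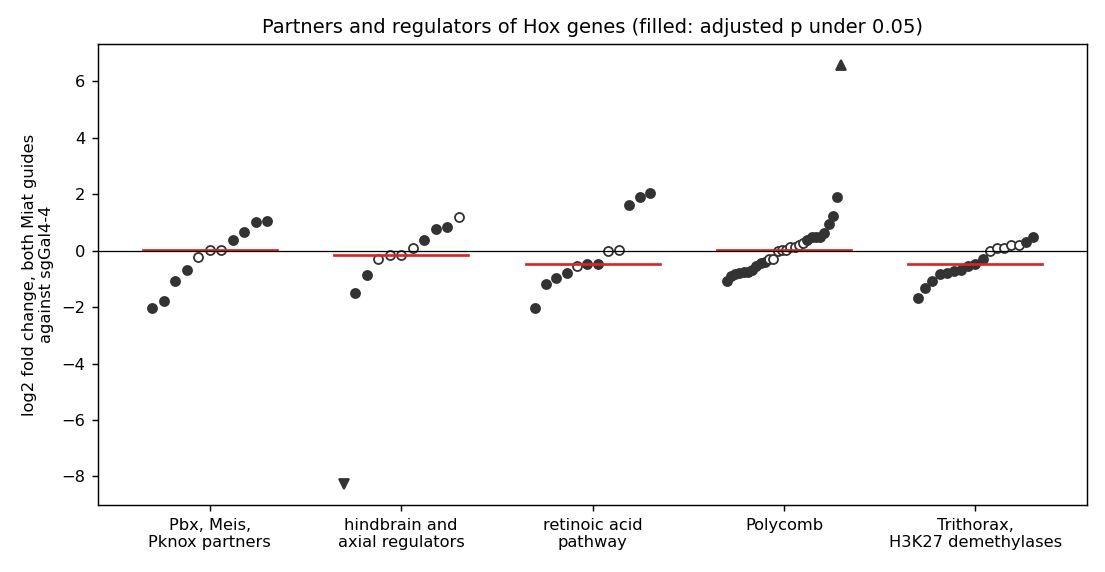
Log2 fold change of both Miat guides against sgGal4-4 (vertical axis) for each tested gene of 5 lists around Hox regulation (horizontal axis), filled where called, with the list median as a red line and genes at a bound as triangles. Medians lie between -0.49 and 0.03, and each list holds genes on both sides of 0.

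The lists that follow are read against the 33.1% of all genes called higher and 33.4% called lower with both guides. Of 11 Pbx, Meis, Pknox and Tgif genes, DNA-binding partners of Hox proteins or their relatives, all tested, 4 were called higher and 4 lower. Their median log2 fold change was 0.02 against 0.00 over all genes. Meis2, a cofactor of Pbx, had 12.5 and 14.2 CPM in the controls and between 3.52 and 4.55 in the Miat libraries, and fell by 1.78 ± 0.17 (adjusted p = 9.42e-07). Tgif1, a repressor of the same homeodomain class, fell by 1.09 ± 0.13 (adjusted p = 7.50e-06). Pknox2 rose by 1.03 ± 0.13 (adjusted p = 1.65e-05), and Meis1 had 0.02 ± 0.11 (adjusted p = 0.883).

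Among 18 regulators of hindbrain segments and of the axis, 11 were tested, 3 called higher and 3 lower, with a median of -0.14. Otx2, which defines the midbrain ahead of the cerebellum, had 11.7 and 13.3 CPM in the controls and 0 in all 4 Miat libraries, at least 312-fold lower (adjusted p = 5.18e-09). Otx2 passed the filter on low counts only through the control libraries, where it is high, so its call partly follows from the filter. Egr2 (Krox20), an activator of Hoxa2 and Hoxb2 in the hindbrain, fell by 1.51 ± 0.16 (adjusted p = 2.97e-06). En2 and Gbx2, genes of the midbrain-hindbrain boundary region, rose by 0.85 ± 0.11 (adjusted p = 2.40e-05) and 0.75 ± 0.13 (adjusted p = 0.000179).

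Of 21 retinoic acid pathway genes, 12 were tested, 3 called higher and 6 lower, with a median of -0.49. With the length trend removed, 4 were called higher and 5 lower, with a median of -0.13. Aldh1a1, which makes retinoic acid, had 4.64 and 4.91 CPM in the controls and between 17.9 and 23.4 in the Miat libraries, and rose by 2.04 ± 0.16 (adjusted p = 1.50e-07). The receptor gene Rarb, itself a retinoic acid target, rose by 1.90 ± 0.27 (adjusted p = 4.68e-05), and the receptor gene Rara fell by 1.19 ± 0.14 (adjusted p = 6.38e-06). Ncor1, a corepressor of these receptors, fell by 0.96 ± 0.12 (adjusted p = 1.64e-05).

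Of 28 Polycomb genes tested, which keep Hox clusters silent, 9 were called higher and 10 lower, shares near the 33.1% and 33.4% of all genes, with a median of 0.03. Phf19, a partner of Polycomb repressive complex 2, had 0 CPM in both controls and between 6.80 and 8.43 in the Miat libraries, at least 95.7-fold higher (adjusted p = 3.04e-08). Phf19 passed the filter on low counts only through the Miat libraries, where it is high, so its call partly follows from the filter. Pcgf2 rose by 1.91 ± 0.15 (adjusted p = 2.42e-07) and Phc2 by 1.22 ± 0.09 (adjusted p = 1.29e-07), both in Polycomb repressive complex 1, while its subunit gene Phc3 fell by 1.07 ± 0.12 (adjusted p = 5.14e-06). Of 17 Trithorax and related genes, which keep Hox genes active, 10 were called lower and 2 higher, beside 33.4% and 33.1% of all genes, with a median of -0.47. With the length trend removed, 7 were called lower and 4 higher, with a median of -0.16. Kmt2a (MLL1), a histone methyltransferase of active Hox genes, had 124 and 88.3 CPM in the controls and between 21.3 and 48.7 in the Miat libraries, and fell by 1.67 ± 0.14 (adjusted p = 4.46e-07). Kat6a, an acetyltransferase, fell by 1.32 ± 0.13 (adjusted p = 1.59e-06), Rbbp5 by 1.07 ± 0.11 (adjusted p = 2.72e-06) and Psip1 by 0.73 ± 0.10 (adjusted p = 2.34e-05). With the length trend removed, the log2 fold changes were -0.75 for Kmt2a, -0.66 for Kat6a, -0.30 for Phc3, -0.31 for Ncor1 and -0.27 for Cbx5, still called.

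The genes whose pattern lay nearest to that of Hoxa5, the member with the highest level, were E130311K13Rik, Ssbp3 and Klc4. Likeness was the Euclidean distance of log2 CPM, centred on each gene's mean, over the 6 libraries. The candidates were 10579 genes whose mean reached 5 CPM. The distances were 0.0973, 0.101 and 0.108. Their CPM ranged from 8.56 to 10.9, from 113 to 138 and from 13.7 to 17.3, so that they too varied little between libraries.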

How the data were processed

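RNA of 6 libraries was prepared with a kit for mRNA, per the labels' protocols. The submitters' processing notes name STAR as a tool and GRCm38 and mm10 as the build. The read counter, its use of strand and its annotation are not given in the sources used. The deposited tables list a whole-number count, an FPKM and a TPM for each RefSeq transcript row, per the file headers. No use was made of the deposited TPM, and the deposited FPKM served to recover transcript lengths and zeros. Count over FPKM gave whole transcript lengths, within 0.01 bases, in 100.0% of values. The 33984 rows cover 24063 symbols, 5261 of them with several rows, and the row with the highest total count was kept for each symbol. For Hoxb3, whose rows tie, the first by identifier was kept. Rows of sgMiat-96 replicate 2 whose FPKM is 0 hold 1 count in the deposited table and were set to 0, which departs from the counts as deposited.

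Counts were tested with edgeR 4.0.16 (limma 3.58.1, R 4.3.3) by the quasi-likelihood test, after filterByExpr by group and TMM scaling, in 1 model of 3 groups with 3 residual degrees of freedom. The p-values were adjusted by Benjamini-Hochberg over 13220 genes, and an adjusted p under 0.05 was called. CPM are TMM-scaled. The standard error is the absolute log2 fold change divided by the square root of F, and is approximate near 0 counts. For a group at 0 the fold is a bound, taking 3 counts over that group as the floor. For a group with 1 to 3 counts a ratio with a 95% Clopper-Pearson interval is given. Floors and intervals cover counting error only. Between replicates the chi-square per gene was 4.13 (sgGal4-4), 19.1 (sgMiat-6) and 14 (sgMiat-96), where 1 is sampling noise.

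The members and gene lists were chosen with earlier results of these data known. Named were all members, the other Hox genes past the filter, and of each other list up to 4 called genes with the smallest adjusted p and up to 2 not called. The values of some genes that this rule names are not reported here. Coordinates come from GENCODE M21 and promoters from RefSeq. Alternatives were scaling by library size, no filter, counts as deposited, the transcript row with the lowest count, a replicate block, a loess correction for transcript length (span 0.3), each library left out, only the groups compared, another prior count for neighbours, and DESeq2 1.42.0. The fit was also run on simulated counts, with the same spread for all genes and far fewer changed genes than were called here. That run does not show how the fit performs on these data. Python 3.11.15 with pandas 2.3.3, scipy 1.17.1 and matplotlib 3.10.9 prepared tables and plots.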

Additional observations from a re-analysis of the deposited data

Results flagged for a closer look

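Of 39 named genes that are not Hox members, 15 (38.5%) differed between the Miat guides, near the 36.7% of all genes called in this comparison, by edgeR's test of sgMiat-96 against sgMiat-6 with adjusted p between 0.00213 and 0.0426. Lower with sgMiat-96 on the log2 scale were Kmt2a (-0.86), Kat6a (-0.86), Phc3 (-0.74), Ncor1 (-0.70), Lnp (-0.50), Psip1 (-0.48) and Tax1bp1 (-0.31). Higher with sgMiat-96 were Tgif1 (0.67), Egr2 (0.61), Gbx2 (0.57), Pcgf2 (0.51), Meaf6 (0.44), Tgif2 (0.43), Phc2 (0.39) and Rxrb (0.37). These calls depend on the processing: of 14 alternatives, each gene was called under between 6 and 13, and Egr2, Rxrb and Tax1bp1 under 6. With the length trend removed, Kmt2a was at -0.15 (adjusted p = 0.352), Phc3 at -0.14 (adjusted p = 0.328), Ncor1 at -0.19 (adjusted p = 0.125), Meaf6 at 0.13 (adjusted p = 0.422), Lnp at 0.02 (adjusted p = 0.914) and Tax1bp1 at -0.23 (adjusted p = 0.0634), none of them called.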

How the results depend on the processing

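Of 437 values of the members under alternatives, 431 stayed on the same side of the threshold, 5 lost a call (Hoxb8 with sgMiat-96) and 1 gained a call (Hoxa2 with sgMiat-96). Of the values called in the main fit or in the alternative, 0 changed direction. Some values called in neither did change direction, such as those of Hoxa5 and Hoxd4 with both guides. With both guides Hoxa3 ranged from -1.03 to -0.87, Hoxa10 from -3.61 to -3.22 and Hoxb8 from -4.53 to -2.49 in log2 fold change, called under all 13 alternatives. Hoxa5 ranged from -0.14 to 0.21, Hoxd3 from -0.97 to 0.00 and Hoxd4 from -1.02 to 0.20, never called. With the length trend removed, Lnp turned to 0.73 and Meaf6 to -0.14 for sgMiat-96 against sgGal4-4, and Cbx5 to 0.27 and Lnp to 0.02 between the Miat guides; transcript length is the only term changed. Genes called between the Miat guides went from 4850 to 3196 with the length trend removed, and from 1124 (without sgMiat-96 replicate 1) to 5740 with a library left out; without sgMiat-6 replicate 1 they numbered 2253. Scaling by library size alone moved the share of higher calls from 49.9% to 38.9% for sgMiat-96 against sgGal4-4 and from 48.6% to 27.1% between the guides. The median log2 fold change of all genes went from 0 to -0.20 and from 0.01 to -0.14 in these comparisons. For both guides against sgGal4-4 it went from 0 to -0.13, a shift that the medians of lists share. Same-numbered libraries did not deviate together: their deviations correlated at 0.06, -0.18 and -0.37 over 10582 genes. With 2 libraries per group, a negative value means that libraries of opposite number deviated together. The value of -0.37 was that of sgMiat-6 with sgMiat-96. Whether it reflects a link between libraries was not tested, and no model with that pairing was fitted. With a replicate block, 8341 genes were called with both guides, and 4 members as without it. Depth limits Hoxb8, Hoxd3 and Hoxd4 most. With only the Miat groups fitted, Hoxb3 and Hoxb8 did not pass the filter.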
